A study of Rattus norvegicus with 20 samples.

Results

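The genes described here encode enzymes and binding proteins that modify histones or DNA or move nucleosomes. They were chosen by name among the gene probes of the arrays: names beginning with Hdac, Sirt, Dnmt, Kdm, Kmt, Setd, Prmt, Smarc, Hmgn, Jarid or Jmjd, names of Chd or Mbd followed by a digit, and Ezh2, Eed, Suz12, Rnf20, Rnf40, Ep300, Crebbp and Suv39h1, with the probe of highest mean signal standing for each gene. The rule found 56 genes, with 87 probes, among 36459 gene or probe names on the array. It used no measured difference, but it was set with earlier results of these data known. Of the 56, 50 passed the signal filter and were tested among 30483 features. The arrays compared neurons labelled as sprouting with neurons labelled as non-sprouting, taken by laser capture from rats aged 2 years after a stroke. Each rat had received cholera toxin B, a tracer taken up by axons, with 2 different fluorescent dyes, at different times and at the same site in the cortex beside the infarct, the later tracer after a survival of 21 days in one cohort of 5 rats and of 7 days in a separate cohort of 5 rats, and the neurons were captured 7 days after that. The labels do not say which tracer pattern marks a sprouting neuron. All groups therefore shared the stroke, the age and both tracers, uninjured animals were not analysed here, and strain and sex are not given in the labels. Each value comes from about 300 captured neurons per cell type, whose RNA was amplified in 2 rounds before labelling.

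Histone tails carry acetyl, methyl and ubiquitin groups that set how tightly DNA is packed and which proteins bind it, and DNA itself is methylated at CG dinucleotides. Acetyltransferases and deacetylases, methyltransferases and demethylases add and remove these groups, methyl-CpG-binding proteins read DNA methylation, and ATP-driven remodellers of the SWI/SNF and CHD families slide or evict nucleosomes. In neurons these proteins are known for their part in activity-dependent transcription, in memory and, in peripheral nerve injury, in switching growth genes on after the axon is cut.

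Each animal gave 1 log2 ratio per gene, the mean of an array with sprouting neurons in Cy5 and a second array of that animal's RNA in the opposite dye orientation. Positive ratios mean a higher signal in sprouting than in non-sprouting neurons. Values are given in the order of replicates 1 to 5 of a cohort, and errors are the SD over animals unless the SE of the limma fit is named. The share of gene spots well above background ranged over the arrays from 69.8% to 95.5% for Cy5 and from 20.8% to 95.2% for Cy3. The ratios of the 2 dye orientations of an animal correlated across features, which are not independent replicates, at 0.0603 in day 21 replicate 4, the lowest, and at 0.893 in day 7 replicate 1, the highest. The SD of the tested members' ratios within an animal was largest in day 21 replicate 5, at 0.378, and smallest in day 7 replicate 5, at 0.0992. Nothing in the labels says more of the replicates than that they were different animals, and 5 animals per day limit the precision.

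The captured pools gave signal for marker genes of neurons and of other cell types. All 9 neuron marker genes found on the array were well above background in at least 31 of the 40 channels (20 arrays with 2 colours), and 3 of them in all 40. The 9 astrocyte markers were well above background in at least 29 channels, the 10 microglia and macrophage markers in at least 32 and the 9 endothelial markers in at least 35. The 8 oligodendrocyte markers reached it in at least 34 channels and the 6 blood cell markers in at least 31, so that none of these markers was at background throughout. Most gene spots were well above background on most arrays, so these counts do not set the markers apart from other genes. The median ratio of the neuron markers ran from -0.25 to 0.060 over the day 21 animals and from -0.041 to 0.020 over the day 7 animals. Of the 10 microglia and macrophage markers, 9 had a lower ratio at day 21 than at day 7, with a median difference of -0.26, and 8 of the 9 astrocyte markers had a higher one, with a median difference of 0.11. All 6 blood cell markers had a lower ratio at day 21 than at day 7, with a median difference of -0.21. Day 7 replicate 1 stood apart in the blood cell markers, with a median of 1.10. The other 4 day 7 animals had medians of -0.071 to 0.037. In replicate 1 the ratio was 3.81 for Pf4 and 2.28 for Hbb. Its microglia and macrophage markers went both ways, with 4.21 for Lyz and 2.00 for Trem2, but -0.46 for C1qa, -0.42 for C1qb and -0.36 for Cx3cr1. Their median in that animal was 0.21, within the range of -0.20 to 0.30 over the day 7 animals. The part of the markers of other cell types in the ratios of the chromatin genes was not tested. In such pools fewer cells of a type and less RNA per cell cannot be told apart.

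No chromatin gene passed an adjusted p of 0.05 at either day, in the difference between days or in the mean of both days (limma with Benjamini-Hochberg adjustment over all features). The background was as empty: 0 of 30483 features passed at day 21, at day 7 and in the difference, 0% in each, and 1 passed in the mean of both days, 0.00328%. That 1 feature, RGD1309931, is not among the chromatin genes and was named after its values were seen. It had a mean ratio of -0.29 ± 0.030 (SE, adjusted p = 0.0476). At an unadjusted p under 0.05, 3 of the 50 members were counted at day 21, against 4.76% of all features, and 2 at day 7, against 6.08%. The difference between days gave 2 members, against 4.12% of features, and the mean of both days gave 4, against 6.47%. The shares of members, 6% at day 21, 4% at day 7, 4% in the difference and 8% in the mean, were thus near those of the background. The smallest adjusted p of any member was 0.922 at day 21, 0.760 at day 7, 0.923 in the difference and 0.550 in the mean.

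After loess, which brings the bulk of the ratios of an array near 0, the ratios of the 50 members centred on 0 at both days. Their median was 0.00046 at day 21, with 25 genes above 0 and 25 below, and -0.00024 at day 7, also with 25 above and 25 below. The median over all features was -0.0012 at day 21 and -0.0022 at day 7. With median centring in place of loess, the median over all features was -0.029 at each day. The member medians, given in the last section, then lay further below 0. The median size of a ratio, without its sign, was 0.050 among members and 0.046 among all features at day 21, and 0.045 among members and 0.047 among all features at day 7. Member ratios ran from -0.35 for Smarca2 to 0.28 for Mbd2 at day 21 and from -0.14 for Setdb1 to 0.23 for Hdac11 at day 7. The heatmap of all tested members shows the ratios of each animal.

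**Figure D1:**
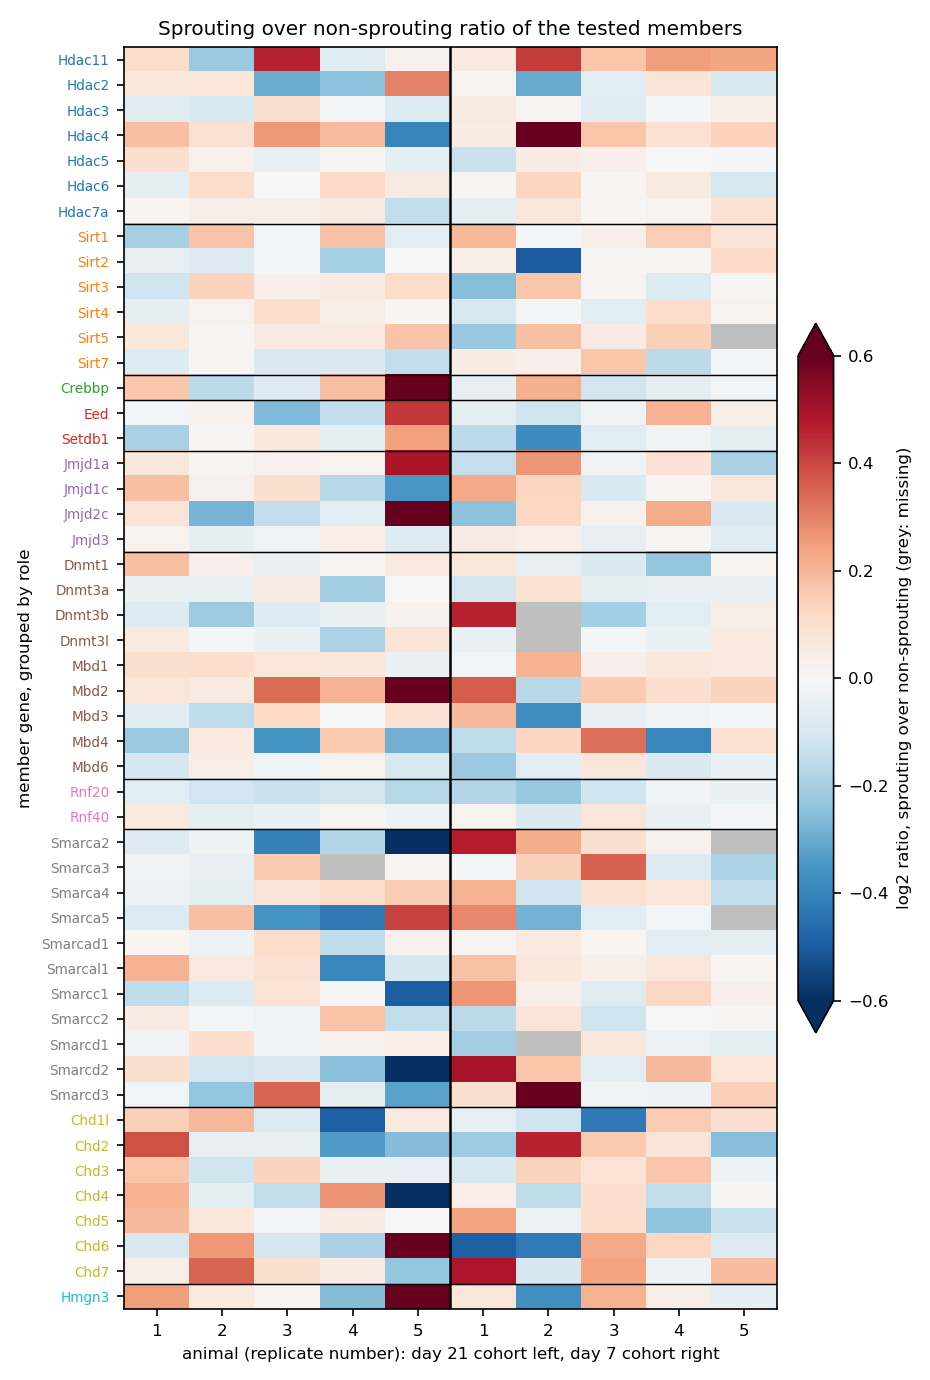
Log2 ratio of sprouting over non-sprouting neurons for the 50 tested genes (down the page, grouped by role) in each animal (across, day 21 cohort left, day 7 cohort right); red is higher in sprouting neurons, blue lower, grey missing, and colours end at 0.6 in either direction. Day 21 replicate 5 holds the strongest colours, with an SD of 0.378 over the genes, and the Rnf20 row is blue in all 10 animals.

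Signs shared by all animals of a cohort were few. At day 21, 5 members had 1 sign in all 5 animals, Jmjd1a, Mbd2 and Sirt5 above 0 and Rnf20 and Smarca2 below 0, against 5.68% of all features. At day 7 there were also 5, Hdac11, Hdac4 and Smarcal1 above 0 and Rnf20 and Setdb1 below 0, against 10.3% of all features. Rnf20 was the 1 member with the same sign in all 10 animals, as were 0.407% of features. Smarca2 was the 1 member whose day 21 and day 7 animals did not overlap, as were 1.15% of features. It had no value in day 7 replicate 5, and with fewer animals a lack of overlap comes about more easily.

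The 2 genes of the histone H2B ubiquitin ligase, Rnf20 and Rnf40, encode partner proteins that together attach 1 ubiquitin to histone H2B along transcribed genes. Rnf20 had ratios of -0.062, -0.12, -0.13, -0.11 and -0.17 in the day 21 animals. In the day 7 animals it had -0.18, -0.23, -0.12, -0.021 and -0.038. All 10 animals were thus below 0, and the ratio was below 0 on 18 of the 20 arrays. The mean was -0.12 ± 0.039 at day 21 and -0.12 ± 0.088 at day 7 (SD, n = 5 each), a signal 1.09-fold lower in sprouting neurons at day 21 and 1.08-fold lower at day 7. The limma p was 0.00934 at day 21 (adjusted p = 0.922), 0.00996 at day 7 (adjusted p = 0.760) and 0.00110 for the mean of both days (adjusted p = 0.550).

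The signal behind that ratio was low. The log2 intensity of Rnf20 in sprouting pools was 7.04, 7.29, 7.02, 8.02 and 9.08 at day 21, against 7.10, 7.40, 7.15, 8.14 and 9.25 in the non-sprouting pools of the same animals. At day 7 it was 6.95, 6.68, 7.05, 7.28 and 6.73 in sprouting pools, against 7.13, 6.91, 7.17, 7.30 and 6.76 in non-sprouting pools. In each animal the sprouting pool lay slightly under its own non-sprouting pool, while the animals of a cohort overlapped widely between pools. The probe was well above background on 7 of 10 arrays in the sprouting channel and 9 of 10 in the non-sprouting channel at day 21, and on 9 and 8 of 10 at day 7. With the scanner software's own log ratios the day 21 mean was 0.22 and the day 7 mean -0.39, so that the direction at day 21 was the opposite with those ratios. Rnf40 averaged -0.010 ± 0.048 at day 21 and -0.0078 ± 0.060 at day 7 (SD, n = 5 each), with 2 animals above 0 in each cohort.

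The 300 bases around the annotated start of Rnf20, from 250 bases before it, are shown because it was the gene with 1 sign in all animals. They lie at chr5:68771365-68771664 on the plus strand of the GRCr8 assembly (RefSeq) and hold 16 CG dinucleotides. Capitals mark GC boxes, the letters GGGCGG or their reverse complement CCGCCC, of which there were 4.
Rnf20: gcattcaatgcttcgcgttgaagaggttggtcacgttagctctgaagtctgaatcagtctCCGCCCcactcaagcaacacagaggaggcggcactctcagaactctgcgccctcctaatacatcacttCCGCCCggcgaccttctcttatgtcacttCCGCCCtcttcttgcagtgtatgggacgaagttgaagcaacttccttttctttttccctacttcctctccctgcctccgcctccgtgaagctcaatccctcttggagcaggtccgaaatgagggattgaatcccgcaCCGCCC

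Among the histone deacetylases, which remove acetyl groups, all 7 genes were tested, and 4 had a mean ratio above 0 at day 21 and 5 at day 7, with group medians of 0.0041 at day 21 and 0.021 at day 7. Hdac11, the single class IV deacetylase, had 0.056, 0.42, 0.17, 0.25 and 0.24 in the day 7 animals. Its day 21 ratios were 0.11, -0.22, 0.46, -0.071 and 0.027. All 5 day 7 animals were above 0, while the day 21 animals lay on both sides and spanned the day 7 range. The mean was 0.062 ± 0.26 at day 21 and 0.23 ± 0.13 at day 7 (SD, n = 5 each), the day 7 value being 1.17-fold higher in sprouting neurons. The limma p at day 7 was 0.0227 (adjusted p = 0.80), and 0.0858 without replicate 2, 0.0543 without replicate 4 and 0.0512 without replicate 5. A second Hdac11 probe gave 0.16 ± 0.23 at day 21, with 4 animals above 0, and 0.17 ± 0.086 at day 7, with all 5 above 0.

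Hdac4, a class IIa deacetylase that shuttles between nucleus and cytoplasm and represses MEF2 targets, had the next smallest p above 0 at day 7. Its ratios were 0.18, 0.091, 0.26, 0.19 and -0.40 in the day 21 animals and 0.047, 0.65, 0.17, 0.085 and 0.14 in the day 7 animals. A single animal stood apart in each cohort, replicate 5 below the others at day 21 and replicate 2 above the others at day 7. The mean was 0.065 ± 0.26 at day 21 and 0.22 ± 0.25 at day 7 (SD, n = 5 each), and 0.11 at day 7 without replicate 2. The limma p at day 7 was 0.0622 (adjusted p = 0.826). The other 2 probes of Hdac4 did not show it, with -0.032 and -0.0058 at day 7 and -0.010 and -0.049 at day 21. Hdac2, a class I deacetylase known as a brake on synaptic genes, had -0.022 ± 0.25 at day 21 and -0.075 ± 0.14 at day 7 (SD, n = 5 each). Hdac3, Hdac5, Hdac6 and Hdac7a (now Hdac7) had mean ratios between -0.031 and 0.045 at day 21 and between -0.012 and 0.027 at day 7. A second Hdac5 probe gave -0.18 ± 0.15 at day 21, with 1 animal above 0. At day 7 that probe gave -0.13 ± 0.075, with all 5 animals below 0. Second probes of Hdac2 and Hdac3 gave -0.093 and -0.098 at day 21 and -0.15 and -0.085 at day 7. The further probes of Hdac6 and Hdac7a had -0.024 to 0.089 at day 21 and 0.0016 to 0.030 at day 7.

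The sirtuins are deacylases that need NAD and so follow the energy state of the cell. Of the 6 tested, 4 had a mean ratio above 0 at day 21 and 3 at day 7, with group medians of 0.018 at day 21 and 0.0034 at day 7. Sirt5, which removes succinyl groups from mitochondrial proteins, had 0.064, 0.0058, 0.053, 0.047 and 0.17 at day 21, all above 0, and -0.23, 0.18, 0.049 and 0.14 in the 4 day 7 animals with a value. Its day 21 mean of 0.068 ± 0.062 (SD, n = 5) rested on -0.030 on the forward arrays and 0.17 on the dye-swap arrays, with an adjusted p of 0.925 in limma. Sirt7, a deacetylase of the nucleolus, had -0.078 ± 0.055 at day 21 and 0.014 ± 0.12 at day 7 (SD, n = 5 each), with adjusted p = 0.922 at day 21 in limma. Sirt1, a nuclear deacetylase, had 0.014 ± 0.16 at day 21 and 0.090 ± 0.086 at day 7 (SD, n = 5 each). Sirt2, which deacetylates tubulin, and the mitochondrial Sirt3 and Sirt4 had mean ratios between -0.066 and 0.04 at day 21 and between -0.066 and -0.0073 at day 7.

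Crebbp, the acetyltransferase CBP that is recruited by CREB, was the 1 acetyltransferase found, since no probe was named Ep300. It had 0.16, -0.16, -0.075, 0.18 and 0.60 in the day 21 animals and -0.047, 0.21, -0.11, -0.054 and -0.019 in the day 7 animals. The mean of 0.14 ± 0.30 at day 21 (SD, n = 5, adjusted p = 0.922 in limma) thus came with 2 of the 5 animals below 0, and the day 7 mean was -0.0041 ± 0.13 (SD, n = 5). Its other 2 probes gave -0.063 and 0.0082 at day 21 and -0.029 and 0.045 at day 7.

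Of the enzymes for histone methylation, no probe carried the name of Ezh2, Suz12, Suv39h1 or a gene beginning with Kmt, Kdm, Prmt or Jarid, and Eed and Setdb1 were the 2 genes found on the methyltransferase side. Setdb1 places a repressive methyl mark on histone H3 and silences retroelements. Its ratios were -0.20, 0.0084, 0.061, -0.058 and 0.25 at day 21 and -0.16, -0.38, -0.066, -0.024 and -0.060 at day 7. All 5 day 7 animals were below 0 and the day 21 animals lay on both sides. The mean was 0.012 ± 0.16 at day 21 and -0.14 ± 0.14 at day 7 (SD, n = 5 each). The limma p at day 7 was 0.0628 (adjusted p = 0.828). Eed, the subunit of Polycomb complex PRC2 that binds its product, had 0.0033 ± 0.26 at day 21 and 0.0095 ± 0.13 at day 7 (SD, n = 5 each), and its mean was below 0 on the forward arrays, at -0.12 on day 21 and -0.086 on day 7, and above 0 on the dye-swap arrays, at 0.12 on day 21 and 0.10 on day 7.

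The demethylases of the Jumonji family remove methyl groups from histone lysines. Jmjd1a (now Kdm3a), which acts on a repressive mark of histone H3, had 0.066, 0.010, 0.027, 0.022 and 0.49 in the day 21 animals. Its day 7 ratios were -0.14, 0.26, -0.022, 0.085 and -0.19. The day 21 animals were all above 0, but 4 of them by less than 0.1, and replicate 5 set the mean of 0.12 ± 0.21, against -0.0017 ± 0.18 at day 7 (SD, n = 5 each). The limma p at day 21 was 0.159 (adjusted p = 0.922). A second Jmjd1a probe gave 0.045 ± 0.34 at day 21, with 2 animals above 0. At day 7 that probe gave -0.11 ± 0.090, with all 5 animals below 0. Jmjd2c (now Kdm4c) had the largest SD of any member within the day 21 cohort, with ratios between -0.28 and 1.11 around a mean of 0.14 ± 0.56 (SD, n = 5). Jmjd1c had -0.044 ± 0.21 at day 21 and 0.068 ± 0.12 at day 7, and Jmjd3 (now Kdm6b), a demethylase that opposes Polycomb, -0.021 ± 0.051 at day 21 and -0.0039 ± 0.054 at day 7 (SD, n = 5 each).

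Among the genes for DNA methylation and its readers, 9 of 11 were tested, and 3 had a mean ratio above 0 at day 21 and 4 at day 7. Mbd2, which binds methylated DNA and recruits the NuRD repressor, had 0.073, 0.054, 0.33, 0.20 and 0.73 in the day 21 animals and 0.36, -0.17, 0.16, 0.10 and 0.13 in the day 7 animals. Of the 10 animals 9 were above 0, the exception being day 7 replicate 2, and 18 of 20 arrays were. The mean was 0.28 ± 0.28 at day 21 and 0.12 ± 0.19 at day 7 (SD, n = 5 each), or 1.21-fold higher in sprouting neurons at day 21. The limma p at day 21 was 0.0162 (adjusted p = 0.922). Without day 21 replicate 5 the day 21 mean was 0.17 (limma p = 0.0586), and with plain median centring in place of loess it was 0.056 at day 21 and -0.046 at day 7. For the mean of both days Mbd2 had 0.20 ± 0.068 (SE, adjusted p = 0.739), and the exact sign-flip test over 10 animals gave p = 0.0176 before any adjustment.

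Mbd1, another reader of methylated DNA, had smaller but more even ratios, 0.094, 0.10, 0.071, 0.064 and -0.040 at day 21 and -0.017, 0.21, 0.032, 0.067 and 0.057 at day 7. It was above 0 in 4 animals of each cohort and on 16 of 20 arrays, with means of 0.059 ± 0.058 at day 21 and 0.069 ± 0.084 at day 7 (SD, n = 5 each). For the mean of both days limma gave p = 0.0379 (adjusted p = 0.765), and 0.0902 without day 7 replicate 2, the highest of the values with 1 animal left out. Mbd6, a relative that does not share their binding of methylated DNA, had -0.032 ± 0.064 at day 21 and -0.067 ± 0.10 at day 7 (SD, n = 5 each).

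With the probe of highest signal, the DNA methyltransferase genes had mean ratios under 0.1 in size at both days. Dnmt1, which copies methylation after replication, had 0.049 ± 0.081 at day 21 and -0.057 ± 0.11 at day 7 (SD, n = 5 each), with adjusted p = 0.923 for the difference of 0.11 in limma. A second Dnmt1 probe gave 0.073 ± 0.034 at day 21, with all 5 animals above 0, and -0.025 ± 0.14 at day 7. Dnmt3a, which sets new methylation in neurons, had -0.048 ± 0.098 at day 21 and -0.032 ± 0.076 at day 7 (SD, n = 5 each), and its probe was well above background on 4 of 10 arrays of the sprouting channel at day 21. A second Dnmt3a probe gave -0.051 ± 0.14 at day 21, with 2 animals above 0, and -0.13 ± 0.17 at day 7, with 1 above 0. Dnmt3b had -0.077 ± 0.088 at day 21 (SD, n = 5) and 0.057 ± 0.29 in 4 day 7 animals, and Dnmt3l, an inactive partner of the Dnmt3 enzymes, -0.021 ± 0.11 at day 21 (SD, n = 5) and -0.0086 ± 0.048 in 4 day 7 animals. Mbd3, a subunit of NuRD, had -0.0028 ± 0.11 at day 21 and -0.053 ± 0.20 at day 7, and Mbd4, a repair glycosylase, -0.13 ± 0.22 at day 21 and 0.0012 ± 0.28 at day 7 (SD, n = 5 each).

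The strip plot of single animals sets these genes beside the SWI/SNF subunits.

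**Figure D2:**
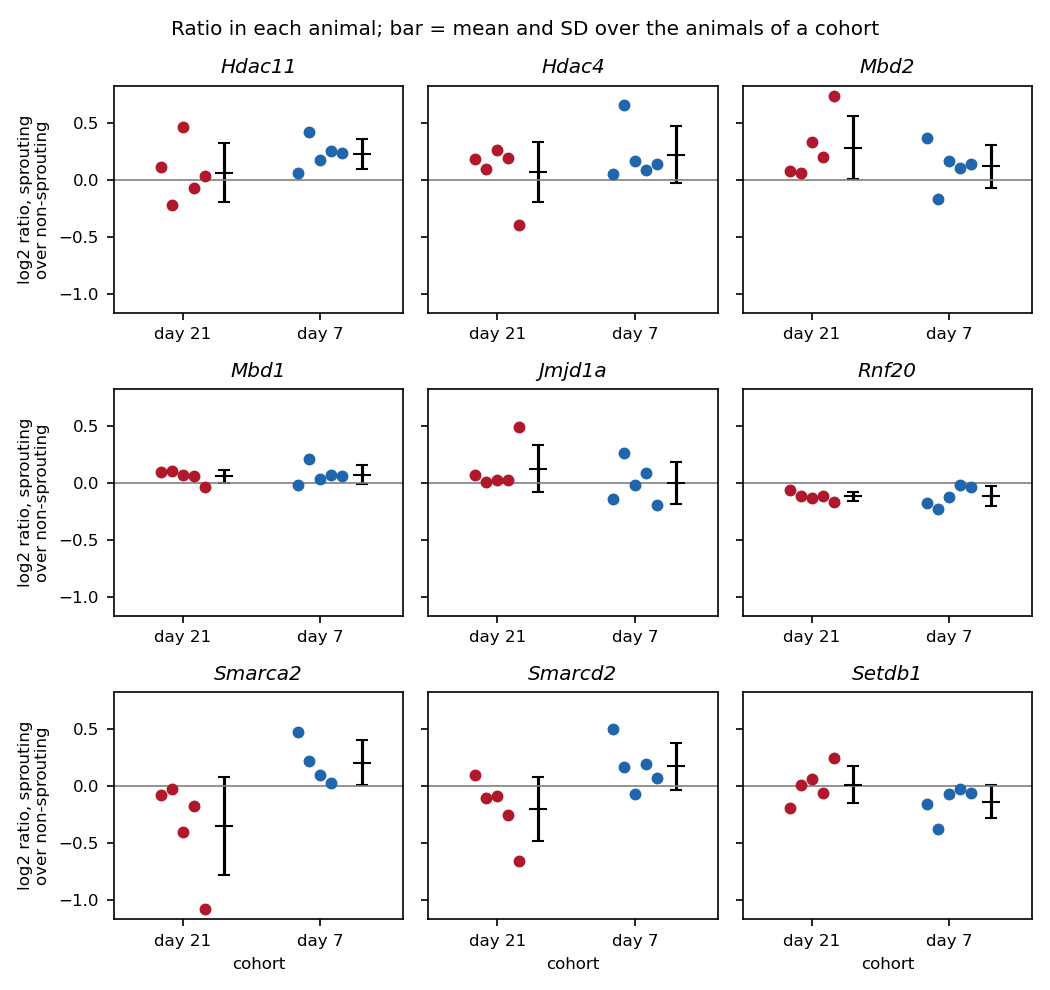
Log2 ratio of sprouting over non-sprouting neurons (vertical axis, shared) in each animal for 9 genes, day 21 cohort left in red and day 7 cohort right in blue; the bar is the mean and SD over the animals of a cohort. Rnf20 lies below 0 in all 10 animals. Smarca2 has no overlap between cohorts, with no value in day 7 replicate 5. Day 21 replicate 5 is the day 21 point farthest from 0 for every gene shown except Hdac11 and Mbd1.

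SWI/SNF complexes slide nucleosomes with an ATPase that is either Smarca2 (BRM) or Smarca4 (BRG1), around a core that includes Smarcc1 and Smarcc2 and 1 of the 3 variants Smarcd1, Smarcd2 and Smarcd3. The family held the 2 lowest mean ratios of the set at day 21, Smarca2 and Smarcd2, and 8 of its 11 tested genes had a lower ratio at day 21 than at day 7. Among all 50 members 28 had a lower ratio at day 21, and among all features 49.1% had a higher one. The group median was -0.028 at day 21, with 4 genes above 0, and 0.044 at day 7, with 7 above 0. Smarca2 had -0.077, -0.030, -0.40, -0.18 and -1.07 in the day 21 animals. At day 7 it had 0.47, 0.22, 0.095 and 0.024 in replicates 1 to 4, and replicate 5 had no value because a spot was marked as an outlier on 1 of its arrays. All 5 day 21 animals were below 0 and all 4 day 7 animals above 0. The mean was -0.35 ± 0.43 at day 21 (SD, n = 5), or 1.28-fold lower in sprouting neurons, and 0.20 ± 0.20 at day 7 (SD, n = 4). The limma p was 0.0307 at day 21 (adjusted p = 0.922) and 0.219 at day 7 (adjusted p = 0.858). At day 21 the mean was -0.34 without replicate 3 (limma p = 0.0711) and -0.17 without replicate 5 (limma p = 0.0688).

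The difference between days for Smarca2 was -0.56 ± 0.21 (SE), with p = 0.0246 in limma (adjusted p = 0.923) and p = 0.0238 in an exact two-sided permutation of the days over the 9 animals. It was -0.38 without day 21 replicate 5, whose ratio was the lowest (limma p = 0.0112). Without day 7 replicate 1, whose ratio was the highest and whose blood cell markers stood apart, it was -0.47 and the limma p was 0.0696, above 0.05. The part of those markers in the Smarca2 difference was not tested. In log2 intensity, the non-sprouting pools had 9.82, 9.96, 10.06, 10.19 and 11.60 at day 21, against 9.55, 8.34, 9.25 and 9.59 at day 7, without overlap. The sprouting pools had 9.74, 9.93, 9.65, 10.01 and 10.53 at day 21, against 10.02, 8.56, 9.34 and 9.62 at day 7, which overlapped. The mean of the non-sprouting pools was 1.14 higher at day 21 and that of the sprouting pools 0.59 higher, on the log2 scale. Such levels without overlap between days were found for 4 of the 50 members in non-sprouting pools and for 3 in sprouting pools. The share over all features was not counted, so these counts have no background and say nothing particular to Smarca2. The levels compare different animals on different arrays and were not tested.

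Smarcd2 had 0.096, -0.11, -0.085, -0.25 and -0.66 in the day 21 animals and 0.50, 0.17, -0.069, 0.19 and 0.072 in the day 7 animals. Most day 21 animals were below 0 and most day 7 animals above it, with 1 exception in each cohort, so that the cohorts overlapped. The mean was -0.20 ± 0.28 at day 21 and 0.17 ± 0.21 at day 7 (SD, n = 5 each), a difference of -0.37 ± 0.14 (SE) with p = 0.0259 in limma (adjusted p = 0.923) and p = 0.0317 in an exact two-sided permutation of the days. A second Smarcd2 probe gave -0.14 ± 0.17 at day 21 and 0.15 ± 0.18 at day 7 (SD, n = 5 each), a difference of -0.29. Without day 21 replicate 5 the difference of the first probe was -0.26. Without day 7 replicate 1, again the highest animal, it was -0.29 with a limma p of 0.0619, and without day 21 replicate 4 it was -0.36 with a limma p of 0.0509, so that neither kept a p under 0.05. With day 7 replicate 1 left out, 0 of the 50 members had a p under 0.05 for the difference.

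The animals had been scanned in 5 batches, of which 1 held both days, with day 21 replicate 1 and day 7 replicates 4 and 5. Within that batch the difference was -0.10 for Smarca2 and -0.037 for Smarcd2, from 1 day 21 animal. For Smarca2, day 7 replicate 5 had no value, so that day 7 replicate 4 alone stood for day 7. With batch as a block the fit gave the same values, as it must, since only that batch holds both days, and so it adds nothing to them. Every other batch held animals of 1 day, so that for them day and scan batch cannot be told apart.

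The promoter windows of Smarca2 and Smarcd2 are shown because these were the 2 members with a p under 0.05 for the difference, both lower at day 21. That of Smarca2 lies at chr1:233617121-233617420 on the plus strand and that of Smarcd2 at chr10:91702359-91702658 on the minus strand of GRCr8 (RefSeq), printed from 5′ to 3′ of the gene. They hold 29 and 24 CG dinucleotides, and capitals again mark GC boxes, 2 in each.
Smarca2: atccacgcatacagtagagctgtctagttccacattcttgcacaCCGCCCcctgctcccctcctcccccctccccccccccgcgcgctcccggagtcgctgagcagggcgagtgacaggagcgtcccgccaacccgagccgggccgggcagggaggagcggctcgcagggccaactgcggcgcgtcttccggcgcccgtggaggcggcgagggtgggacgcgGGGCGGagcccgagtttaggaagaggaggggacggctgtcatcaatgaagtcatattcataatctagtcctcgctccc
Smarcd2: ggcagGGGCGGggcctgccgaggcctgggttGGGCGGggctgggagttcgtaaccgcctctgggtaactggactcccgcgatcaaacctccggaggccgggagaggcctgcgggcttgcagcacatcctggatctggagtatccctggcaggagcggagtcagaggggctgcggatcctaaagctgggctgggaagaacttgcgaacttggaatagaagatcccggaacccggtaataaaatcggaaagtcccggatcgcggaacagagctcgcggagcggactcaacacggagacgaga

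GC boxes were common among these genes. Of the 56 genes, 49 had a window in the RefSeq table, and 69.4% of them held at least 1 GC box on either strand, against 34.9% of all 27457 windows. The median number of CG dinucleotides was 23 per window, against 7 in all windows. A CCAAT box (the letters CCAAT or ATTGG) was present in 42.9%, against 37.7%, and the letters TATAAA, on either strand, in 0%, against 14.3% of all windows. These are matches of letters in a window of 300 bases and were not set against any measured binding.

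With the probe of highest signal, the other SWI/SNF genes did not follow Smarca2 and Smarcd2 as a block. Smarcc1 had -0.13 ± 0.22 at day 21 and 0.075 ± 0.13 at day 7 (SD, n = 5 each), a difference of -0.20 with adjusted p = 0.923 in limma. Its partner Smarcc2 had 0.0068 ± 0.12 at day 21 and -0.037 ± 0.098 at day 7 (SD, n = 5 each). A second Smarcc2 probe gave -0.073 ± 0.15 at day 21, with 1 animal above 0, and 0.055 ± 0.22 at day 7 (SD, n = 5 each), a difference of -0.13. Smarca4, the alternative ATPase, had 0.050 ± 0.091 at day 21 and 0.021 ± 0.15 at day 7 (SD, n = 5 each), but its second probe had -0.13 at day 21 and 0.18 at day 7. Smarcd3, the variant found in neuronal complexes, had -0.055 ± 0.26 at day 21 and 0.18 ± 0.30 at day 7 (SD, n = 5 each), while Smarcd1 had 0.024 ± 0.052 at day 21 (SD, n = 5) and -0.059 ± 0.11 in 4 day 7 animals, a difference of 0.083 in the other direction. Smarca5, the ATPase of ISWI complexes, Smarca3 (now Hltf), Smarcad1 and Smarcal1 had mean ratios between -0.057 and 0.025 at day 21 and between -0.019 and 0.074 at day 7.

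**Figure D3:**
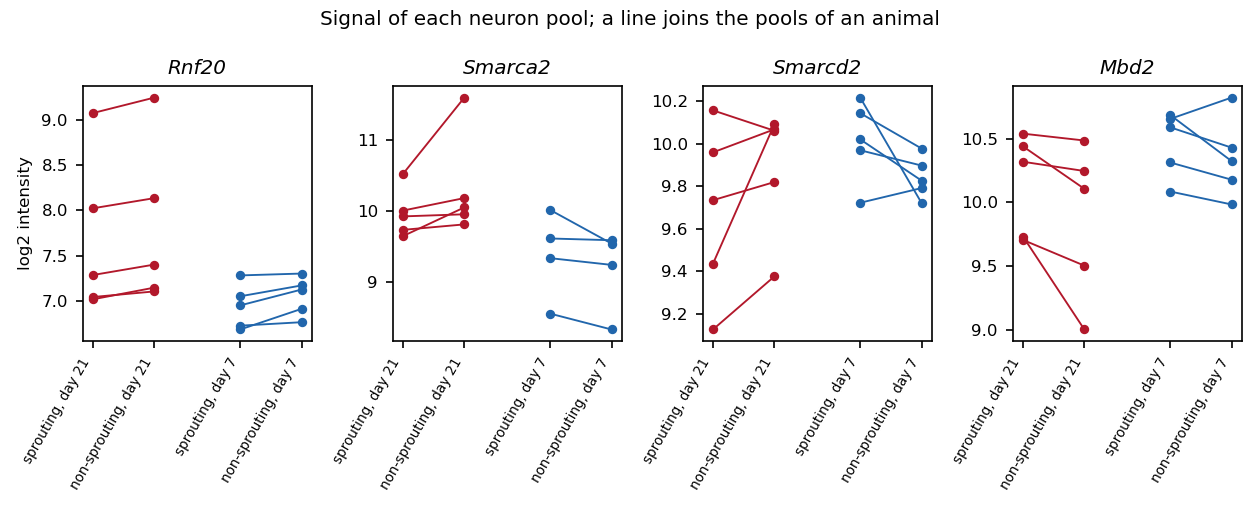
Log2 intensity of each neuron pool (vertical axis, a scale of its own per gene) for Rnf20, Smarca2, Smarcd2 and Mbd2; a line joins the sprouting pool (left of each pair) with the non-sprouting pool of the same animal, day 21 in red and day 7 in blue. Lines of Rnf20 run up to the right in all 10 animals, and the Smarca2 lines run up at day 21 and down at day 7, with -1.07 as the lowest ratio.

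The CHD remodellers are ATPases, of which Chd3, Chd4 and Chd5 serve the NuRD repressor. Of the 7 tested, 4 had a mean ratio above 0 at day 21 and 3 at day 7, with group medians of 0.019 at day 21 and -0.013 at day 7. Chd7, the gene mutated in human CHARGE syndrome, had 0.034, 0.35, 0.097, 0.050 and -0.23 in the day 21 animals and 0.49, -0.10, 0.24, -0.032 and 0.19 in the day 7 animals, on both sides of 0 in each cohort. Its mean was 0.060 ± 0.21 at day 21 and 0.16 ± 0.23 at day 7 (SD, n = 5 each), with adjusted p = 0.837 at day 7 in limma, and 0.074 at day 7 without replicate 1, its highest animal. A second Chd7 probe had 0.014 at day 21 and 0.11 at day 7. Among the probes of highest signal, that of Chd6 varied most in this family, with 0.12 ± 0.39 at day 21 and -0.13 ± 0.32 at day 7 (SD, n = 5 each). The Chd6 difference of 0.25 had adjusted p = 0.923 in limma. A second Chd6 probe did not show that difference, with -0.032 ± 0.10 at day 21 and -0.0055 ± 0.15 at day 7, a difference of -0.027. Chd4 had -0.075 ± 0.36 at day 21 and -0.031 ± 0.11 at day 7 (SD, n = 5 each), with 0.21, -0.058, -0.15, 0.27 and -0.64 in the day 21 animals, and 0.067 at day 21 without replicate 5. Further Chd4 probes gave -0.062 and -0.29 at day 21, each with 1 animal above 0. At day 7 they gave -0.0057 (n = 3) and 0.061 (n = 5). Chd1l, Chd2, Chd3 and Chd5 had mean ratios between -0.063 and 0.057 at day 21 and between -0.069 and 0.052 at day 7 with the probe of highest signal. A second Chd2 probe gave -0.19 ± 0.17 at day 21, with 1 animal above 0. At day 7 that probe gave 0.073 ± 0.17 (SD, n = 4), a difference of -0.26. A second Chd1l probe gave -0.032 at day 21 and -0.043 at day 7. Hmgn3, a protein that binds nucleosomes, had 0.15 ± 0.36 at day 21 and -0.023 ± 0.22 at day 7 (SD, n = 5 each).

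Set side by side, the days showed no common shift of the whole set. In the difference between days 22 members were above 0 and 28 below, with a median of -0.0044, against a median of -0.0022 over all features. Both days entered 1 fit and share its estimate of the spread, but no sample.

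**Figure D4:**
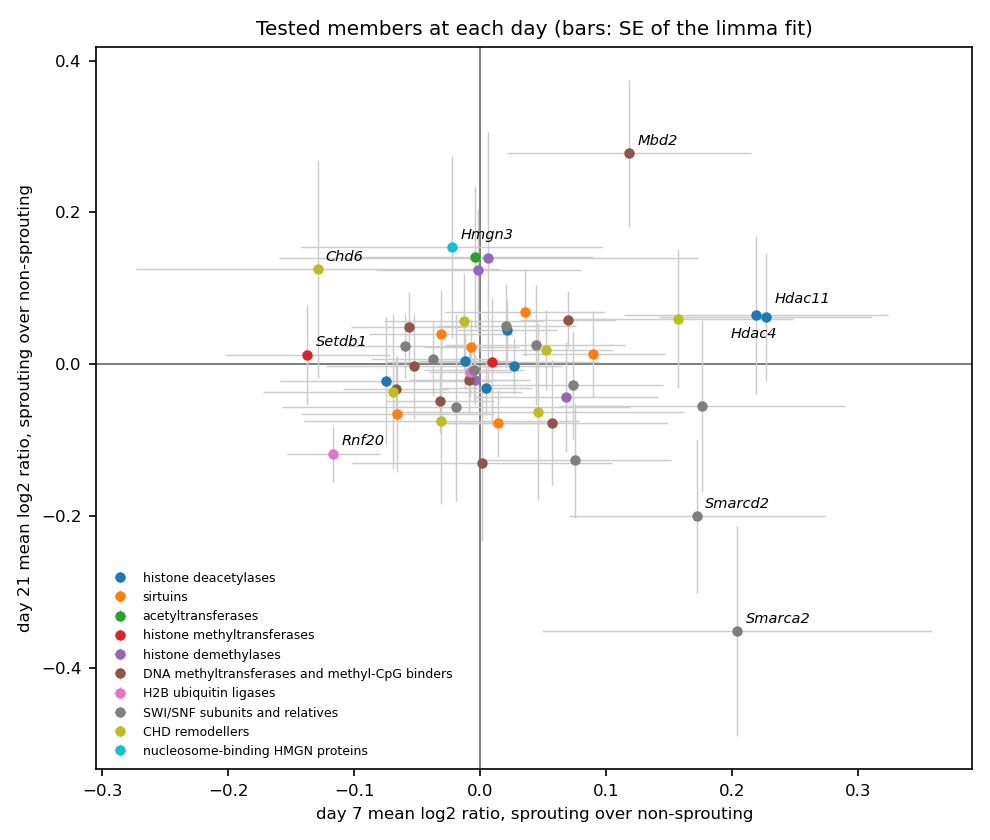
Mean log2 ratio of sprouting over non-sprouting neurons of the 50 tested genes at day 21 (vertical) and day 7 (horizontal), coloured by role, with SE bars from the limma fit. The ratio exceeds 0.1 in size for 11 genes at day 21 and 10 at day 7; Rnf20 is below 0 on both axes, Mbd2 above 0 on both, and Smarca2 and Smarcd2 lie lower right.

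The probe chosen for a gene mattered. For 24 members a further 28 probes passed the signal filter, and 20 of these had the sign of the probe used at day 21 and 20 at day 7. The sign was shared at both days for Hdac11 and Smarcd2, and at neither day for the further probes of Hdac4 and Smarcc2. Rnf20, Smarca2, Mbd1, Mbd2 and Setdb1 had 1 probe each, so that no second probe bears on their values.

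**Figure D5:**
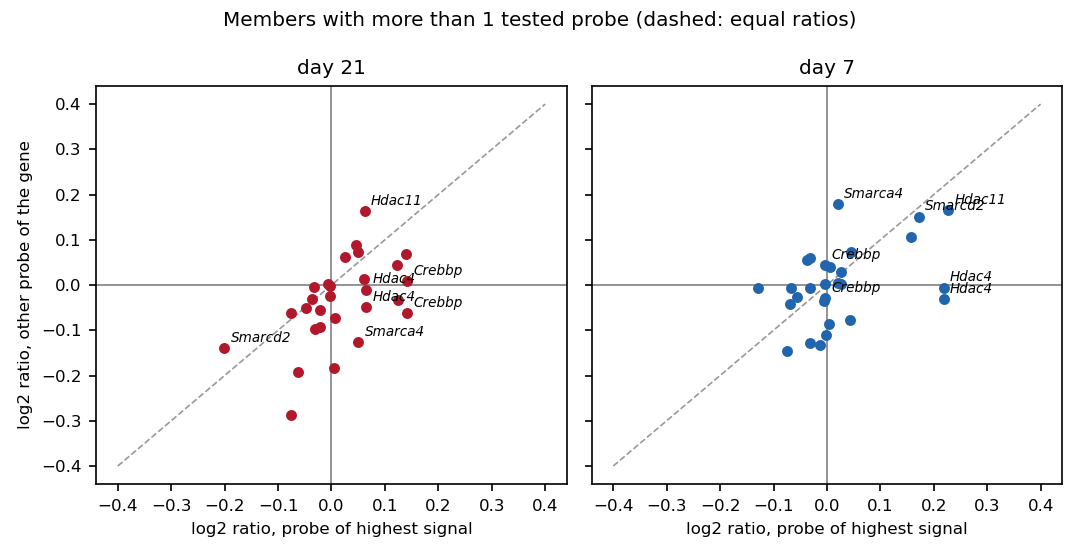
Mean log2 ratio of each further tested probe of a gene (vertical) against that of its probe of highest signal (horizontal), day 21 left and day 7 right; the dashed line marks equal ratios. The Smarcd2 and Hdac11 probes share their sign at both days, while both further Hdac4 probes lie below 0 at both days.

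The 6 genes that failed the filter were Chd1, Hmgn1, Jmjd2a (now Kdm4a), Mbd3l1, Mbd3l2 and Smarce1. Hmgn1 was well above background on none of the 20 arrays in either channel, and Mbd3l1 in the sprouting channel on none, so their ratios say nothing about a level. No member was saturated on any array.

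Other genes of chromatin regulation, from a list of 135 names of which 80 were on the array and 71 were tested, gave none that passed the adjusted threshold. At an unadjusted p under 0.05, 3 were above 0 and 5 below at day 21, 11.3% of those tested against 4.76% of all features. At day 7, 4 were above 0 and 2 below, 8.45% against 6.08% of all features. Their median was -3.2e-05 at day 21 and 0.0020 at day 7. H2afz, the histone variant H2A.Z, had 0.13 ± 0.11 at day 21 and 0.19 ± 0.11 at day 7 (SD, n = 5 each), with all 10 animals above 0 and adjusted p = 0.922 at day 21 and 0.644 at day 7 in limma. Ehmt2, a histone H3 methyltransferase, had -0.049 ± 0.10 at day 21 and -0.16 ± 0.032 at day 7 (SD, n = 5 each, limma), with adjusted p = 0.613 at day 7. Rbbp4, a histone chaperone of several repressor complexes, had -0.14 ± 0.064 at day 7 (SD, n = 4, adjusted p = 0.773 in limma), and Ss18, a SWI/SNF subunit, 0.12 ± 0.060 (SD, n = 5, adjusted p = 0.791 in limma). At day 21 Gadd45b, which is linked to active DNA demethylation in neurons, had -0.29 ± 0.21, below 0 in all 5 animals, and Sin3a, the scaffold of a deacetylase complex, -0.36 ± 0.36 (SD, n = 5 each, adjusted p = 0.922 for both in limma). Usp22, which removes ubiquitin from histone H2B in the SAGA complex, had 0.12 ± 0.10 at day 21 (SD, n = 5, adjusted p = 0.922 in limma).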

How the data were processed

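Two-colour Agilent arrays of rat genes compared amplified RNA of sprouting and non-sprouting neurons of 10 rats, with 2 arrays of opposite dye orientation per rat. The deposited intensity values, mean and background per spot and colour, came from Agilent Feature Extraction 9.1.3.1, per the file headers. The log10 ratios of red over green in the same files were background-subtracted and dye-normalized by that software, per the file headers. The authors' deposited table of log2 ratios matched its own array best for 20 of 20 arrays (Pearson r 0.900 to 1.00 across probes), with column medians of -0.0119 to 0.0122. It served as an alternative, and 20 further columns of it were not used. No source used here gives a genome build for the array.

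Intensities were corrected with normexp (offset 50) and normalized by loess within arrays in limma 3.58.1 (R 4.3.3), giving the 2256 control spots no weight. Between 11 and 4088 spots per array carried an outlier mark and were set to missing. Dye-swap ratios were turned, and both arrays of a rat were averaged to 1 value. A gene was represented by its probe of highest mean signal and tested if, in either cell type, at least 3 rats of a day had it well above background on both of their arrays; 6 features were dropped for missing values. Both days entered 1 limma fit (lmFit, eBayes), with Benjamini-Hochberg adjustment over 30483 features and a threshold of 0.05. For single genes, an exact sign-flip test over the animals or an exact permutation of the days was added. The fit was tested on simulated data. Log2 intensities of single pools were made comparable between arrays with limma's Aquantile and are descriptions.

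The members and lists were chosen with earlier results of these data known. Named were the 4 members of smallest p in each direction per comparison, the member of highest signal per role, members with 1 sign in all animals, any that passed the threshold, and for other chromatin genes the 2 of smallest p per direction and day; the remaining members are given to account for all of them. Members were matched to current symbols by accession (13), symbol (38) or synonym (5). Promoter windows came from RefSeq (GRCr8).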

Additional observations from a re-analysis of the deposited data

Results flagged for a closer look

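Of 48 groups of 4 or 5 animals examined, 5 held an animal far from the others by Dixon's criterion, which chance exceeds in about 1 group in 20. Hdac4 had 0.65 in day 7 replicate 2 and -0.40 in day 21 replicate 5. Jmjd1a had 0.49 and Mbd1 -0.040 in day 21 replicate 5. Crebbp had 0.21 in day 7 replicate 2. Day 21 replicate 5 was also the animal with the largest SD over the tested members, 0.378, and over all features at that day, 0.344.

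For Smarca2 every day 21 animal was below 0 and every day 7 animal with a value above 0, with a day 21 minus day 7 difference of -0.56 (limma, adjusted p = 0.923).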

How the results depend on the processing

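No member passed the adjusted threshold under any alternative, and the smallest adjusted p of a member was 0.223 at day 21, 0.365 at day 7, 0.603 in the difference and 0.112 in the mean of both days (limma). The features called numbered 1 at day 21 with median centring, 1 at day 7 without background subtraction and 1 at day 7 with animal weights. With the 20 arrays entered singly they numbered 1 at day 21, 12 at day 7, 1 in the difference and 11 in the mean. The mean of both days gave 0 with the scanner's log ratios, median centring, the filter of well above background on all 20 arrays, outlier spots kept and forward arrays only, 74 with dye-swap arrays only, and 0 to 3 with single animals left out (3 without day 21 replicate 5). The member median at day 21 was 0.019 with the scanner's ratios, -0.060 with median centring, 0.050 with the strict filter, 0.012 with dye-swap arrays and -0.011 with the mean over probes, and -0.0092 to 0.024 with single animals left out. At day 7 it was -0.070 with median centring and -0.00024 to 0.011 with animals left out. In the difference it was 0.026 with the scanner's ratios, 0.033 with the strict filter and -0.013 to 0.010 with animals left out. In the mean it was 0.0068 with the scanner's ratios, -0.091 with median centring, 0.012 with the strict filter, 0.017 with dye-swap arrays and -0.0092 to 0.0062 with animals left out. Median centring moved the median of all features to -0.029 at day 21 and -0.029 at day 7.

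The direction was the opposite for these genes, none of which had passed the threshold. With the scanner's ratios Rnf20 had 0.22 at day 21, and at day 7 Eed had -0.0025, Jmjd1a 0.0016, Crebbp 0.010 and Smarcd1 0.016. With median centring Eed had -0.13, Sirt5 -0.16, Jmjd1a -0.11, Crebbp -0.082 and Hmgn3 -0.073 at day 21. At day 7 it gave Eed -0.12, Sirt5 -0.049, Mbd2 -0.046, Mbd1 -0.0078 and Smarcd1 0.046, and in the mean of both days Hdac4 -0.048 and Dnmt3a 0.031. Forward arrays alone gave Eed -0.12 and Sirt5 -0.030 at day 21, Eed -0.086 and Sirt5 -0.13 at day 7, and Smarcd1 -0.032 in the difference. Dye-swap arrays alone gave Hmgn3 0.014, Crebbp 0.018 and Jmjd1a 0.076 at day 7. Animal weights gave Eed -0.037 at day 21 and Hmgn3 0.013 at day 7, the authors' deposited table Eed -0.0040 at day 7, and no background subtraction Eed -0.058 at day 21. Scan batch as a block gave differences of -0.12 for Chd6, -0.15 for Setdb1 and 0.0079 for Sirt7. These rest on the 1 batch with both days, which held 1 day 21 animal. With single animals left out, day 21 values ran from -0.10 to 0.070 for Eed, -0.10 to 0.047 for Hdac2 and -0.16 to 0.067 for Chd4. Day 7 values ran from -0.058 to 0.023 for Crebbp, -0.068 to 0.046 for Jmjd1a, -0.013 to 0.12 for Sirt5, -0.080 to 0.064 for Hmgn3 and -0.040 to 0.042 for Eed. The cause was not tested.

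Replicate numbers name different animals in the 2 cohorts. Deviations of same-numbered animals correlated at -0.193 to 0.0338, and 0 of 5 correlated best with its own number. With the replicate block 0 features passed in the mean of both days. Dim probes limit the precision: Rnf20 was well above background on 7 of 10 sprouting channels at day 21.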
